A study of Homo sapiens with 16 samples.

Results

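The human genes with the symbols ZNF500 to ZNF899 encode zinc finger proteins, and 204 of them were among the 13148 genes measured. They were chosen by symbol alone, from ZNF500 to ZNF899 with at most 1 letter after the number, so no measured value entered the choice. No library had a share of exactly 0 for 185 of the 204 genes, and 19 genes had a 0 in at least 1 library and are also described apart.

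Most of these proteins carry C2H2 zinc fingers, short folds in which a pair of cysteines and a pair of histidines hold a zinc ion and neighbouring residues read DNA bases. Many also begin with a KRAB box, which binds the corepressor TRIM28, and TRIM28 in turn brings the histone methyltransferase SETDB1, HP1 proteins and histone deacetylases to the bound site. KRAB zinc finger proteins are best known for silencing retroelements, and their genes expanded by tandem duplication into clusters, many of them on chromosome 19. A minority of proteins with ZNF names work elsewhere, for instance on ribosomes.

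The study measured total RNA of 293S cells, a human embryonic kidney line related to HEK293, along sucrose gradients. The cells were untreated or had been given 1 mM sodium arsenite, an agent that causes oxidative stress and shuts down much of translation, for 30 minutes. Each of the 2 gradients was cut into 8 fractions with 1 library each, so there are 16 libraries and no replicates, and none of the differences below could be tested against replicate error. For each gene the deposited values give the share of its total in each of the 8 fractions of a gradient, so a gene's expression level and the read depth behind a share are unknown.

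The sequences below show the structural unit that most of the proteins share, and the first fingers of ZNF622 and ZNF593. Each of the first 6 is 84 bases of coding sequence read 5′ to 3′. The first 21 bases, in capitals, are the last histidine codon of a finger and the linker to the next one. The rest, in lower case, is the next finger without its final histidine. ZNF565 and ZNF621 are among the ZNF genes whose position changed least with arsenite, while most mRNAs moved to lower fraction numbers. Relative to all genes they were thus among the furthest to higher numbers. The others form close pairs in which 1 gene was called moved relative to all genes (ZNF585A with ZNF585B, and ZNF780A with ZNF780B). All sequences are from GENCODE release 29 transcripts on GRCh38, with positions counted from the first coding base.
ZNF565, coding bases 565 to 648: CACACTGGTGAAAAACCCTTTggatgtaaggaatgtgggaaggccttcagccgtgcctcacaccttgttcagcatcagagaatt
ZNF621, coding bases 517 to 600: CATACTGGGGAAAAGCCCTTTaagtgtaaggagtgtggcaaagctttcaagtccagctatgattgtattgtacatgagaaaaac
ZNF585A, coding bases 874 to 957: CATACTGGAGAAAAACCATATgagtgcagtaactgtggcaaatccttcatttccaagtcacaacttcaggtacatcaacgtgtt
ZNF585B, coding bases 874 to 957: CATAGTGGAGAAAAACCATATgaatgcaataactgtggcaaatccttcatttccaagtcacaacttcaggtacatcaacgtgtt
ZNF780A, coding bases 559 to 642: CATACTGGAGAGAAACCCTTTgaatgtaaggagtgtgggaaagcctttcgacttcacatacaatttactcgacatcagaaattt
ZNF780B, coding bases 559 to 642: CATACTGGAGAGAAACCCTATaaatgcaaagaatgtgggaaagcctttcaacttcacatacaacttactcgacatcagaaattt

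Within these 84 bases, ZNF585B differed from ZNF585A at 3 positions (C5G, G24A and G29A), and ZNF780B differed from ZNF780A at 7 (T20A, G22A, T27C, G30A, G33A, G50A and T64C). Positions in these changes count from 1 at the first printed base, with the base of the A gene first. The 2 genes called lower relative to all genes, ZNF622 and ZNF593, have no such linker, but this is not particular to them. The median number of such linkers was also 0 over the ZNF genes in which no KRAB box was found. ZNF587, ZNF592 and ZNF608 likewise have none, and they were called higher. The first fingers of ZNF622 and ZNF593 are shown with their cysteine and histidine codons in capitals.
ZNF622, coding bases 16 to 84: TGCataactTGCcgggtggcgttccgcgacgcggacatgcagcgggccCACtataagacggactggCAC
ZNF593, coding bases 187 to 255: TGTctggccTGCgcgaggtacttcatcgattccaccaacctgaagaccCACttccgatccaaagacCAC

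In untreated cells the ZNF mRNAs lay at lower fraction numbers than most mRNAs. The position of an mRNA, taken as the sum of fraction number times share, had a median of 4.27 over the ZNF genes (quartiles 4.05 and 4.56) against 4.54 over all genes (quartiles 4.14 and 4.96). The position was under the median of all genes for 149 of the 204. The median share in fraction 3 was 19.1% against 14.1% over all genes, and 162 of the 204 exceeded the latter value. In fraction 6 the order was the opposite, with 11.8% against 14.8%, and 64 exceeded the median of all genes. The labels do not state which end of the gradient fraction 1 is, so positions are given by number only.

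With arsenite the order turned round. The median position of the ZNF mRNAs was 3.40 (quartiles 3.08 and 3.67), against 3.10 (quartiles 2.66 and 3.50) for all genes, and 152 of the 204 lay above the median of all genes. There were 104 ZNF genes (51.0%) that lay below the median of all genes without arsenite and above it with arsenite, as did 2613 of all genes (19.9%). The shift, the position with arsenite minus that without, was negative for 203 of the 204 ZNF genes and for 12920 of all genes, and its median was −0.90 fractions for the ZNF genes and −1.46 for all genes. The ZNF mRNAs thus moved to lower fraction numbers in the deposited shares, by less than most mRNAs did.

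The sign of the shift itself depends on how fractions are scaled against each other. When the 16 libraries were rescaled by size factors (the median ratio to a mean library), the median position of the ZNF mRNAs was 4.23 without and 4.75 with arsenite, and that of all genes 4.48 and 4.41. Size factors set the typical gene to the same level in every library, so they take out most movement shared by all genes. The close positions of all genes under them follow from the method. What kept its direction under both scalings was the comparison with all genes. The relative shift, obtained by subtracting the median shift of all genes, is therefore used below. Its median over the ZNF genes was 0.56 fractions (quartiles 0.27 and 0.78, range −1.38 to 1.47) with the deposited shares and 0.65 with size factors, where 0 is the median of all genes.

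**Figure D1:**
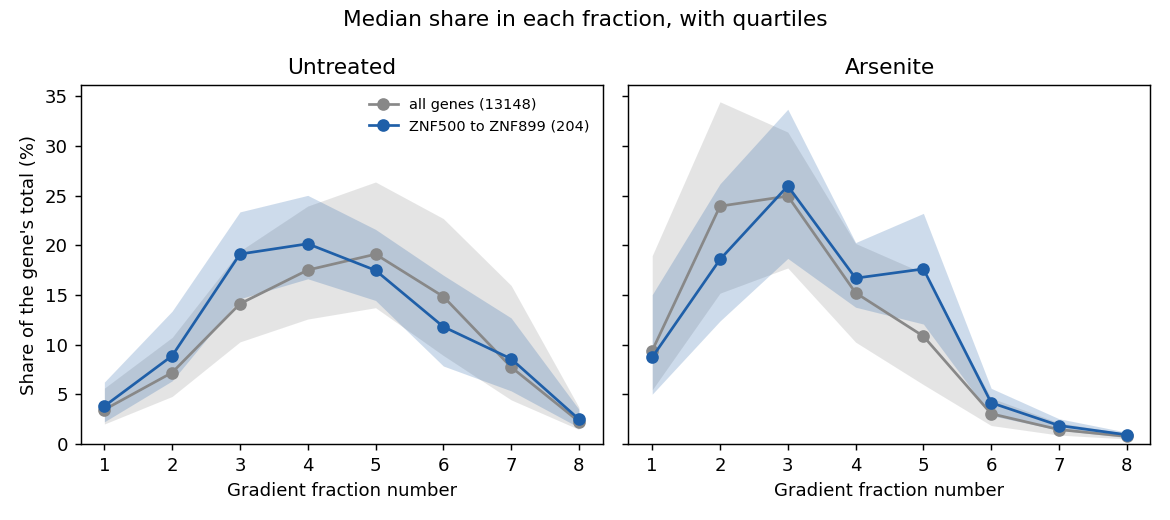
Median share of a gene's total (y axis, percent) in each gradient fraction (x axis, fraction number) without and with arsenite, for the 204 ZNF genes (blue) and all 13148 genes (grey), with bands between the quartiles over genes. The ZNF medians are above those of all genes in fraction 3 without arsenite (19.1% against 14.1%) and in fraction 5 with arsenite (17.6% against 10.9%).

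Fraction 5 of the arsenite gradient held the widest gap. The median ZNF share there was 17.6%, close to the 17.5% of the same fraction without arsenite, while the median over all genes was 10.9% with and 19.1% without. The share in fraction 5 was higher with arsenite than without for 100 of the 204 ZNF genes (49.0%) and for 3713 of all genes (28.2%). In fraction 2 with arsenite the ZNF median was 18.6% against 23.9% over all genes. Fraction 3 was the fullest fraction of the arsenite gradient for 103 ZNF genes (50.5%, against 37.2% of all genes), fraction 2 for 46 (22.5% against 34.5%) and fraction 5 for 34 (16.7% against 8.43%).

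Matched fractions were also compared as log2 ratios of arsenite to untreated shares, after adding 1 percentage point to each. The median log2 ratio in fraction 1 was 0.93 for ZNF genes and 1.16 for all genes, in fraction 2 it was 0.85 and 1.5, and in fraction 3 it was 0.38 and 0.71. Fraction 4 differed little, with −0.25 and −0.18. In fraction 5 it was −0.04 for ZNF genes and −0.72 for all genes, and in fraction 6 it was −1.22 and −1.85. In fractions 7 and 8 the ZNF values (−1.71 and −0.84) were close to those of all genes (−1.86 and −0.89). The widest gaps to all genes were thus in fractions 2, 5 and 6. The size of these ratios depends on the percentage point added, most of all in fractions 7 and 8, where shares are low.

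The summed share in fractions 5 to 8, which does not weight fractions by number, had a median of 43.5% without and 24.7% with arsenite over the ZNF genes, and of 53.9% and 16.4% over all genes. The median change was −18.7 percentage points for the ZNF genes and −33.5 for all genes. With size factors, which take out most shared movement, the change was 12.9 points for the ZNF genes and −2.82 for all genes. Its sign for ZNF genes thus rests on the scaling. At least 50% of the total lay in fractions 5 to 8 for 59 ZNF genes (28.9%) without arsenite, against 58.6% of all genes. With arsenite this held for 2 ZNF genes (0.98%), ZNF608 and ZNF563, against 2.34% of all genes. By this count the ZNF genes were below all genes in both gradients, although their median share in fractions 5 to 8 with arsenite was above that of all genes.

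To be called moved, a gene needed a relative shift of 0.5 fractions or more in either direction, and the same direction after the omission of any single fraction number from the 2 gradients. By this rule 116 of the 204 ZNF genes (56.9%) moved to higher fraction numbers relative to all genes, and 2 (0.98%) to lower ones. Over all genes, 23.6% were called higher and 24.0% lower. The relative shift was above 0 for 178 ZNF genes and below 0 for 26. Among the 185 ZNF genes with no 0, 103 were called higher and 2 lower, against 21.1% and 25.4% of all genes with no 0. Of the 103, 51 were called higher in each of 10 further settings (size factors, a percentage point added to each share, and each of the 8 fractions left out), and ZNF622 was called lower in each. The share of all genes called higher in every setting was not counted, and in single settings it was 20.6 to 28.7%. Adding a percentage point shrinks every relative shift by the same factor, so that setting works mainly as a higher threshold.

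**Figure D2:**
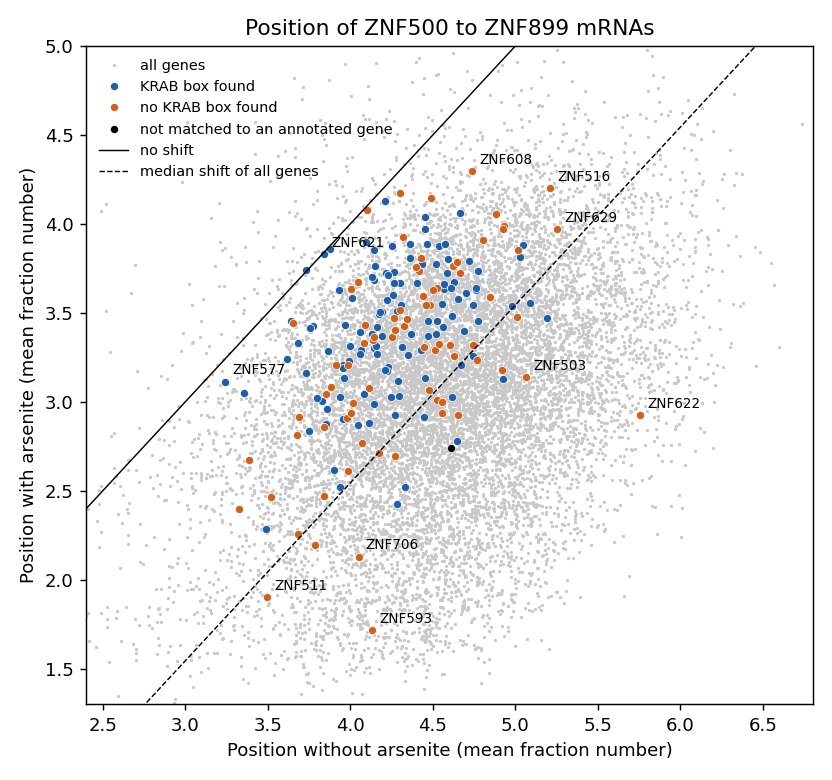
Position (mean fraction number) of each mRNA without arsenite (x axis) and with arsenite (y axis), for ZNF genes whose protein has a KRAB box (blue), those in which none was found (orange), the unmatched ZNF673 (black) and all genes (grey), with axes cut to a range that holds every ZNF gene. Points on the solid line did not shift, points on the dashed line shifted by the median of all genes (−1.46), and most ZNF points lie between the lines.

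Relative to all genes, those furthest moved to higher numbers with no 0 were ZNF621, ZNF565, ZNF827, ZNF585B, ZNF704, ZNF577, ZNF587, ZNF853, ZNF841 and ZNF562. Their relative shifts ran from 1.45 down to 1.15 fractions, while the shift itself was negative for each. KRAB boxes were found in 7 of these 10 proteins, and not in ZNF827, ZNF704 and ZNF853. Without arsenite, ZNF621 had 2.03, 4.03, 40.0, 32.5, 12.5, 3.67, 3.02 and 2.28% of its total in fractions 1 to 8. With arsenite it had 3.72, 9.05, 33.7, 19.7, 26.1, 4.81, 1.77 and 1.25%. Fractions 3 and 4 gave up share and fraction 5 gained it, and the position hardly differed (3.84 without, 3.83 with), which put the relative shift at 1.45.

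The KRAB zinc finger gene ZNF565 had shares of 3.81, 6.86, 32.8, 29.7, 15.3, 6.77, 2.33 and 2.41% without arsenite, and 3.19, 16.9, 21.3, 20.3, 29.6, 6.11, 2.17 and 0.55% with it. Its fullest fraction went from 3 to 5, and its relative shift was 1.44 fractions. ZNF827, which brings the NuRD complex to telomeres, was spread evenly without arsenite (12.4, 16.1, 11, 17.9, 11.1, 17.7, 11.4 and 2.50%) and had 7.72, 14.3, 10.3, 19.6, 32.4, 11.1, 3.36 and 1.25% with it. Fraction 5 again stood out, and its relative shift was 1.43. ZNF841 had 36.5% in fraction 5 with arsenite and 15.8% without, and its relative shift of 1.16 was 0.76 when that fraction was left out of both gradients.

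**Figure D3:**
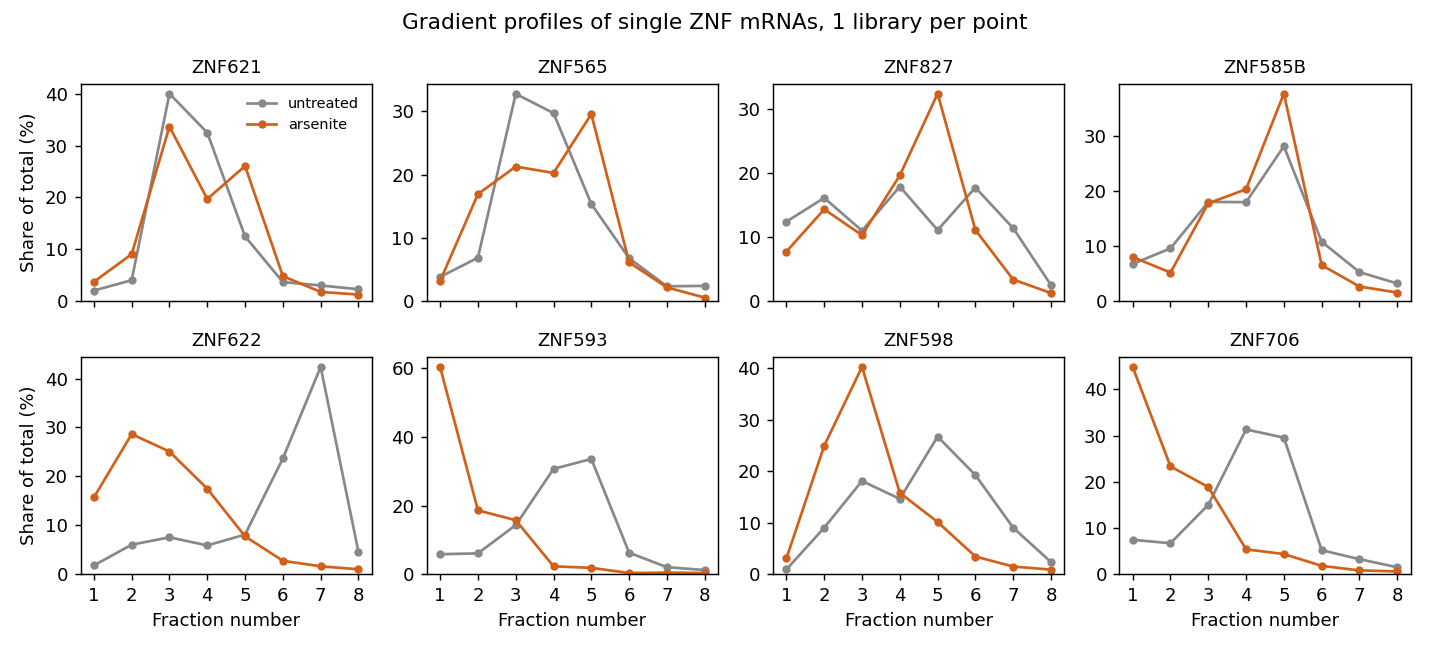
Share of the total (y axis, percent) in fractions 1 to 8 (x axis) without arsenite (grey) and with arsenite (orange) for 8 ZNF genes, each point being 1 library. ZNF621, ZNF565, ZNF827 and ZNF585B have a rise at fraction 5 with arsenite, and ZNF622, ZNF593, ZNF598 and ZNF706 have their arsenite maximum in fractions 1 to 3.

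Both genes called lower encode proteins of the large ribosomal subunit pathway rather than DNA-binding repressors. ZNF622, the human counterpart of yeast Rei1, acts in the late cytoplasmic steps of 60S subunit maturation. Its untreated shares were 1.80, 6.04, 7.55, 5.89, 8.10, 23.7, 42.4 and 4.56%, and those with arsenite 15.7, 28.6, 25.1, 17.5, 7.74, 2.75, 1.62 and 1.01%. It had the highest position of the ZNF genes with no 0 without arsenite (5.76) and fell to 2.93, a relative shift of −1.38, which was −0.77 when fraction 7 was left out of both gradients.

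ZNF593, the counterpart of yeast Bud20 and a factor in export of pre-60S particles, had untreated shares of 5.83, 6.07, 14.3, 30.7, 33.6, 6.26, 2.06 and 1.21%. With arsenite they were 60.3, 18.6, 15.7, 2.31, 1.86, 0.35, 0.47 and 0.36%. Its position went from 4.13 to 1.71, the lowest of the ZNF genes with arsenite, and the relative shift was −0.96. This call rests on few fractions, since the relative shift was −0.22 without fraction 1, and the gene was also not called without fraction 4 (−0.83), without fraction 5 (−0.49) or with size factors (−1.55), where values beyond the threshold changed direction on omission of some fraction. ZNF593 also has the shortest mRNA of the 203 ZNF genes matched to a transcript, at 675 nt.

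Of 24 ZNF genes in this number range listed for a known role beyond, or beside, binding DNA as a repressor, 22 were in the table. The ubiquitin ligase ZNF598, which marks collided ribosomes, had untreated shares of 0.93, 9.02, 18.1, 14.6, 26.7, 19.2, 9.02 and 2.35% and arsenite shares of 3.07, 24.9, 40.2, 15.8, 10.1, 3.44, 1.49 and 0.90%. Its position went from 4.63 to 3.26 and its relative shift of 0.09 was close to the median of all genes. ZNF706, a small protein with 1 finger, had 44.8% of its total in fraction 1 with arsenite and 7.45% without. Its relative shift was −0.46, short of the threshold, and it depended on single fractions. It was called lower without fraction 3, 6 or 7 (−0.65, −0.61 and −0.65), but was −0.10 without fraction 5 and 0.05 without fraction 1. ZNF830, linked to pre-mRNA splicing, was at −0.10.

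Cofactors of chromatin complexes were divided. ZNF592 and ZNF687 are partners in a complex with the chromatin reader ZMYND8, and their relative shifts were 1.08 (called higher) and −0.07. Without arsenite ZNF592 had its largest share in fraction 3 (29.9%) and ZNF687 in fraction 6 (23.9%), while with arsenite both were fullest in fraction 3 (34.2% and 36.3%). The pair thus differed in untreated cells and was close with arsenite, at positions 3.68 and 3.48. ZNF644, a subunit of the G9a/GLP histone methyltransferase complex, had a relative shift of 0.57 and was called higher, but not without fraction 2 (0.36) or 6 (0.40). ZNF518B was called higher at 0.77. ZNF518A was called higher at 0.60, but not with size factors (0.46) or without fraction 1, 5 or 6 (0.49, 0.34 and 0.47).

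ZNF638, an RNA- and DNA-binding nuclear protein that recruits the HUSH silencing complex to unintegrated retroviral DNA, was just over the threshold at 0.51 and was not called with size factors (0.10), with a percentage point added to each share (0.47), or without fraction 1, 2, 5 or 6 (0.40, 0.38, 0.12 and 0.26). ZNF609, which binds the cohesin loader NIPBL, was called higher at 0.56 (0.88 with size factors), but not without fraction 1, 2 or 5 (0.33, 0.40 and 0.36). ZNF711, which works with the histone demethylase PHF8, was called higher at 0.58, but not without fraction 5 or 6 (0.42 and 0.49). ZNF652, a repressor that partners CBFA2T3, was called higher at 1.06, with positions of 4.32 and 3.92.

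ZNF521, a cofactor in blood and neural progenitors, was called higher at 0.67 (1.27 with size factors), but not without fraction 1 (0.44). ZNF804A was called higher at 0.68, but not without fraction 6 (0.46). ZNF512B was called higher at 0.52 and lost the call with a percentage point added (0.48) or without fraction 1, 4, 5, 7 or 8 (0.38 to 0.49), and ZNF512 was at −0.28. The related corepressors ZNF703 and ZNF503, which have a single atypical finger, lay on opposite sides of the median at 0.39 and −0.47. Neither was called. ZNF703 was called higher with size factors (0.83) or without fraction 4 or 6 (0.50 and 0.59), but was 0.26 without fraction 1 and 0.09 without fraction 2. ZNF503 was called lower without fraction 1 or 5 (−0.61 and −0.64), but was −0.19 without fraction 7 and −0.22 with size factors. ZNF746, also known as PARIS, a KRAB repressor and parkin substrate, was at −0.08.

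The order of positions without arsenite ran from ZNF577 (3.24), ZNF540 (3.36) and ZNF688 (3.49) up to ZNF516 (5.21), ZNF629 (5.25) and ZNF622 (5.76) among genes with no 0. With arsenite it ran from ZNF593 (1.71), ZNF511 (1.90) and ZNF706 (2.13) up to ZNF704 (4.17), ZNF516 (4.20) and ZNF608 (4.29). With 1 library per fraction there is no spread by which neighbours in these orders could be told apart. ZNF516 was thus among the highest in both gradients, with a relative shift of 0.44. That value was over the threshold without fraction 3, 4, 7 or 8 (0.64, 0.58, 0.60 and 0.52) and fell short by more without fraction 1, 5 or 6 (0.27, 0.21 and 0.24) or with size factors (0.29). ZNF608 kept 33.1% of its total in fraction 5 with arsenite, and its relative shift was 1.01. ZNF540 was called higher at 1.15. ZNF688, ZNF629 and ZNF511 were not called (0.25, 0.17 and −0.14), and the sign of each depended on single fractions. ZNF688 ranged from −0.19 without fraction 2 to 0.67 without fraction 5, where it was called higher. ZNF629 ranged from −0.07 without fraction 5 to 0.52 without fraction 3, where it was called higher, and was −0.01 with size factors. ZNF511 ranged from −0.52 without fraction 2 to 0.24 without fraction 1, and was −0.60 with size factors.

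At the threshold of 0.5 the genes just inside were ZNF783 and ZNF646, both at 0.50, and those just outside were ZNF786 and ZNF639, both at 0.48. With size factors ZNF646 dropped to 0.28, while ZNF786 and ZNF639 were called at 0.52 and 0.94. Calls this close to the threshold therefore depend on the scaling.

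The domain make-up of the proteins was found by translating the annotated coding sequence and was not used in choosing the genes. It is not independent of the symbol, as the median number of fingers was 10 over the ZNF genes and 0 over all genes. A KRAB box was found in 126 of the 203 matched genes. Of these 126, 75 were called higher and 0 lower, with a median relative shift of 0.62. Of the 77 in which none was found, 41 were called higher and 2 lower, and their median was 0.52. The search was by a sequence pattern, which can miss a KRAB box. Genes described as without a KRAB box are therefore those in which the pattern found none. Under size factors the medians were 0.69 and 0.59, and 1 KRAB gene, ZNF777, was called lower (−0.50, against −0.34 with the deposited shares). The distributions of the KRAB and other genes overlapped over most of their range.

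Both kinds began at similar positions (medians 4.25 with and 4.32 without a KRAB box) and ended at 3.44 and 3.32 with arsenite. Their shares in fraction 5 were alike without arsenite, with medians of 17.5% and 17.4%. With arsenite the median was 19.4% for the KRAB genes and 13.2% for the others. The KRAB group was not uniform, as 10 of its genes had a relative shift below 0, the lowest being ZNF669 (−0.41), ZNF599 (−0.40) and ZNF582 (−0.35). None of these 10 was called moved.

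By finger number, the median relative shift was 0.39 for 5 genes in which no finger was found (2 higher, 0 lower), 0.50 for 35 genes with 1 to 5 fingers (18 higher, 2 lower), 0.58 for 85 genes with 6 to 11 (46 higher, 0 lower) and 0.61 for 78 genes with 12 or more (50 higher, 0 lower). With size factors these medians were 0.68, 0.32, 0.62 and 0.71, so the order of the genes with no finger rests on the scaling. Among KRAB genes alone, those with 6 to 11 fingers (58 genes, median 0.63) and with 12 or more (61 genes, 0.64) were nearly the same. The 33 genes with neither a KRAB box nor more than 5 fingers had a median of 0.40 and included both genes called lower. Genes with no KRAB box but 6 or more fingers had a median of 0.57 (44 genes, 25 higher, 0 lower). ZNF500 was the only one with a SCAN domain, a dimerization fold, and was called higher at 0.66.

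**Figure D4:**
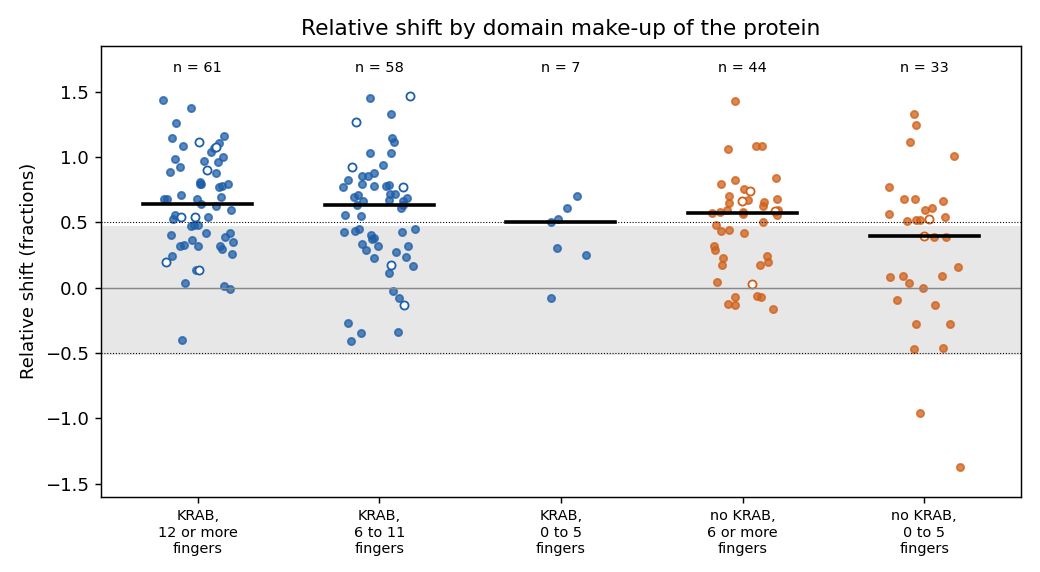
Relative shift in fractions (y axis) of each ZNF gene by KRAB box and number of fingers (x axis), with filled points for genes with no 0, open points for genes with a 0, black bars for group medians, a grey band for the quartiles of all genes and dotted lines at the threshold of 0.5. The group medians run from 0.40 (no KRAB box, 0 to 5 fingers) to 0.64 (KRAB box, 12 or more fingers), and the points of all groups overlap.

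The genes of the KRAB corepressor machinery did not move as the KRAB genes did. A list of this machinery held 28 symbols, with FAM208A also under its other symbol TASOR, and 26 were in the table. Of these, 10 were called lower, 3 higher and 13 neither, where 24.0% of all genes were called lower and 23.6% higher. Their median relative shift was −0.29 (−0.45 with size factors), and their median position without arsenite was 5.23, nearly a whole fraction above that of the ZNF genes. Genes not named ZNF in the highest of 5 bands of untreated position, which starts at 5.06, were called lower in 54.5% of cases, and their median relative shift was −0.58. TRIM28 itself, the scaffold that KRAB boxes bind, went from 6.05 to 3.20, a relative shift of −1.40 and the lowest of the list.

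The deacetylases HDAC2 (−1.33) and HDAC1 (−1.08), the HP1 protein gene CBX3 (−1.0) and the demethylase KDM1A (−0.95) were also called lower. So were EHMT2 (−0.68), which encodes G9a, UHRF1 (−0.62), which guides maintenance DNA methylation, MORC2 (−0.58), the DNA methyltransferase DNMT3B (−0.57) and the NuRD helicase CHD4 (−0.54). SETDB1 was at −0.09 and not called. Called higher were MORC3 (0.68), FAM208A (0.63), a HUSH subunit, and CHD3 (0.53), which was not called with size factors (0.02).

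Long mRNAs keep a higher position with arsenite in these data, so length was looked at beside the relative shift. The median mRNA length was 3233 nt for the 203 matched ZNF genes and 3154 nt for all genes. Across the ZNF genes, Spearman's rho of mRNA length was 0.32 with the untreated position, 0.54 with the arsenite position and 0.23 with the relative shift. These describe 203 genes measured in the same 16 libraries, and genes are not replicates.

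When all genes were divided into 3 bands of mRNA length, the ZNF medians were above those of genes not named ZNF in each. Up to 2366 nt the median relative shift was 0.38 for 48 ZNF genes and −0.40 for the others. From 2367 to 4214 nt it was 0.54 for 90 ZNF genes and −0.04 for the others. From 4216 nt on it was 0.60 for 65 ZNF genes and 0.29 for the others, and 48 of these 65 (73.8%) were called higher, against 35.2% of the others. By mRNA length the gap was thus widest in the shortest band and narrowest in the longest. In 3 bands of coding length it was narrowest in the shortest. Up to 1062 coding nt the median was 0.12 for 18 ZNF genes and −0.25 for the others, and 22.2% against 15.1% were called higher. From 1065 to 1917 nt it was 0.55 for 110 ZNF genes and −0.03 for the others. From 1920 nt on it was 0.61 for 75 and 0.19.

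The position without arsenite moved with the relative shift more closely, with a rho of −0.42 over the ZNF genes and −0.55 over all genes. The shift is computed from that position, so the relation is partly built in. All genes were therefore divided into 5 bands of untreated position. In the lowest band the median relative shift was 0.68 for 50 ZNF genes and 0.54 for genes not named ZNF, and in the next it was 0.67 for 71 and 0.22. In the remaining bands it was 0.47 for 54 ZNF genes against 0.01, 0.29 for 23 against −0.24, and −0.17 for 6 against −0.58. The ZNF median was the higher in each band, by the least in the lowest, where 70.0% of ZNF genes and 52.0% of the others were called higher.

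**Figure D5:**
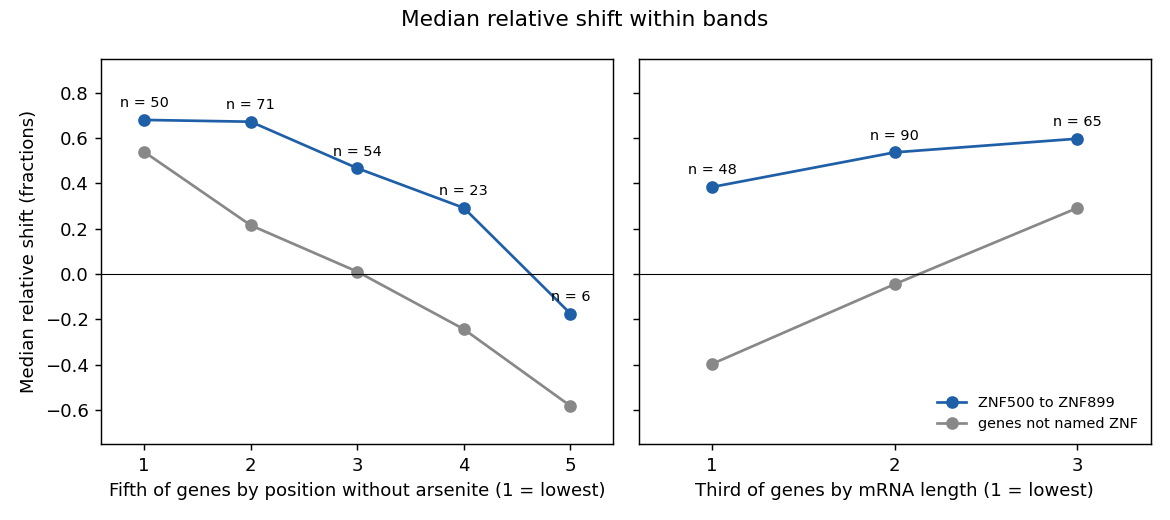
Median relative shift in fractions (y axis) of the ZNF genes (blue, with the number in each band) and of genes not named ZNF (grey) within 5 bands of position without arsenite and 3 bands of mRNA length (x axes, 1 being the lowest band). The blue points lie above the grey in every band, from 0.68 against 0.54 in the lowest position band to −0.17 against −0.58 in the highest.

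Base composition differed within the family. The median GC content of the coding sequence was 44.2% over the ZNF genes and 52.3% over all genes, with 41.6% for KRAB genes and 58.9% for those without a KRAB box. Its rho with the relative shift was −0.29 over the 203 genes. The number of start codons upstream of the coding sequence had a median of 1 both for ZNF genes and for all genes, and a rho of 0.22 with the relative shift. The number of conserved linkers, a median of 4 per protein, had a rho of 0.23. What part GC content, KRAB box and finger number each have in the relative shift was not tested, since they move together across these genes.

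Zinc finger mRNAs share stretches of sequence, and how reads from such stretches were assigned is not known. A median of 2.14% of the 31-base words of a ZNF mRNA also occurred in an mRNA of another gene. The 43 ZNF genes with no shared word had a median relative shift of 0.53 (26 higher, 2 lower). The 117 genes with under 10% shared had 0.56 (66 higher, 0 lower), and the 43 with 10% or more had 0.63 (24 higher, 0 lower). The ZNF genes with no shared word were thus called higher in 60.5% of cases, close to the share of the whole group. ZNF709 shared the most, 88.9%, and its values (relative shift 0.79) are uncertain for that reason.

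Close pairs did not always move alike. ZNF585A and ZNF585B, whose printed stretches differ at 3 bases, share 24.6% of the words of the shorter mRNA. ZNF585B had untreated shares of 6.78, 9.60, 18.1, 18.0, 28.2, 10.8, 5.28 and 3.21% and arsenite shares of 8.03, 5.20, 17.8, 20.4, 37.8, 6.55, 2.65 and 1.56%. ZNF585A had 4.00, 7.39, 29.5, 28.7, 13.2, 14.0, 2.32 and 0.90% without and 29.9, 13.0, 25.7, 11.6, 12.3, 4.18, 2.19 and 1.11% with arsenite. With arsenite, ZNF585A was fullest in fraction 1 and ZNF585B in fraction 5, and their relative shifts were 0.40 (not called) and 1.37 (called higher). The value of ZNF585A ranged from 0.14 to 0.93 when single fraction numbers were omitted, and that of ZNF585B from 1.12 to 1.61. With size factors ZNF585A was also called higher (0.71).

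ZNF780A and ZNF780B share 10.7% and had relative shifts of 0.32 (not called) and 0.78 (called higher). With single fraction numbers omitted they ranged from 0.18 to 0.71 and from 0.61 to 0.85. Such ranges show dependence on single fractions and are not replicate errors, so whether this pair differs was not tested. With arsenite, fraction 1 held 24.1% of ZNF780A and 14.5% of ZNF780B. ZNF561 and ZNF562 share 17.3% and were both called higher, at 0.56 and 1.15. ZNF587B and ZNF814, which share 29.8%, were both called higher at 0.92 and 0.98, while ZNF761 and ZNF845, which share 8.55%, were at 1.00 (called higher) and 0.02, the latter ranging from −0.28 to 0.33 with single fractions omitted. Neighbours on the chromosome were no more alike than other pairs by this measure, as the median difference in relative shift was 0.39 fractions over 54 pairs of adjacent ZNF genes and 0.40 over all 20706 pairs. The 139 genes beside another zinc finger gene had a median relative shift of 0.54, and the 65 not beside one had 0.58.

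The 19 ZNF genes with a share of exactly 0 in some library made up 9.31% of the group, and 11.6% of all genes had such a 0. A share listed at 0 may reflect few reads, and the depth is unknown. Most of the zeros without arsenite were in fraction 8 (8 genes), fraction 7 (7 genes) and fraction 6 (5 genes), and most of those with arsenite in fraction 3 (10 genes). These libraries had zeros at similar rates over all genes. Without arsenite the rates were 3.92% of ZNF genes and 3.50% of all genes in fraction 8, 3.43% and 3.48% in fraction 7, and 2.45% and 2.86% in fraction 6. In fraction 3 with arsenite they were 4.90% and 5.54%. The median relative shift of the 19 was 0.59, close to the 0.56 of the genes with no 0, and 13 were called higher and 0 lower. Over all genes 23.6% were called higher and 24.0% lower, against 21.1% and 25.4% of those with no 0. Genes with a 0 were thus more often called higher, and less often lower, in the whole set of genes too.

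Of the 19, ZNF563 had the largest relative shift, with 7 of its 16 shares at 0. It had shares of 0, 27.9, 12.7, 17.9, 41.6, 0, 0 and 0% without arsenite and of 27.9, 0, 0, 21.2, 46.2, 2.37, 2.27 and 0% with it. This jagged profile gave the only positive shift of the group (0.01) and a relative shift of 1.47, which ranged from 0.66 without fraction 2 to 2.37 without fraction 1. ZNF630 (1.27, and 2.09 with size factors), ZNF528 (1.11), ZNF595 (1.08) and ZNF789 (0.92) followed, with 1, 2, 1 and 1 libraries at 0. ZNF528, ZNF595 and ZNF789 were each listed at 0 in fraction 3 with arsenite, next to shares of 22.4, 34.8 and 15.2% in fraction 2. Without fraction 5, ZNF595 was at 0.66 and ZNF789 at 0.51. ZNF595 was at 0.71 with size factors, and ZNF789 at 1.45 without fraction 1.

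The ZNF genes from ZNF1 to ZNF499 gave nearly the same values. Of 230 such genes, 127 (55.2%) were called higher and 3 lower, and their median relative shift was 0.57. Their median positions were 4.34 without and 3.40 with arsenite, against 4.27 and 3.40 for ZNF500 to ZNF899. Among the lower-numbered genes, 131 with a KRAB box had a median relative shift of 0.64 (85 higher, 0 lower) and 99 without had 0.42 (42 higher, 3 lower). The numbering therefore marked no visible difference in position or shift, while the order of KRAB genes and others was the same in both number ranges.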

How the data were processed

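Fractions of sucrose gradients loaded with material from 293S cells gave total RNA by Trizol and libraries by a method named NSR, per the labels' protocols. Titles placed each of the 16 libraries in a group of its own. The authors deposited 1 table whose library columns hold, in the unit fraction, each gene's share of its total, and whose 3 score columns hold the mean fraction number in each gradient and their difference. Recomputed positions differed from the deposited scores by at most 8.9e-15, and shares summed to 1 within 2.3e-15. Values refer to exons of RefSeq genes per the file headers, and hg19 was the build named per the submitters' processing notes. The steps before that table remain unknown, with aligner, counting method, strand and fraction scaling not given in the sources used here. Depth is unknown, so no interval is given.

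Position, shift, relative shift and calls were computed over all genes as described in the text, with Python 3.11.15, numpy 2.4.6, pandas 2.3.3 and scipy 1.17.1, and the calling rule was tested on simulated profiles. One coding transcript per gene came from GENCODE release 29, matched by symbol for 201 of the ZNF genes and by an older symbol for 2. The release is on another build, so no coordinates are given. Domains were found by patterns in the translated coding sequence, where RefSeq proteins had been planned. A finger was 2 to 4 residues between cysteines, 12 to the first histidine and 3 to 5 between histidines. Gene neighbours came from the RefSeq gene order.

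Genes were named by rule: the 10 furthest moved to higher numbers with no 0, each called lower, the 5 furthest moved with a 0, the 3 highest and 3 lowest positions in each gradient, 24 genes with a known role, the 2 nearest the threshold on each side, and TRIM28 with the corepressor genes that moved. Genes of close pairs, ZNF709 and KRAB genes with negative values were named after their values were seen. Breakdowns by untreated position, shared sequence and neighbours were also added then. The genes and lists were chosen with earlier results of these data known. Alternatives were size factors, a percentage point added to each share, each fraction left out, the point that splits the total at 50%, another centre, thresholds of 0.25 and 1 fractions, genes with no 0, and pseudocounts of 0.1 and 10 percentage points on the log2 scale.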

Additional observations from a re-analysis of the deposited data

How the results depend on the processing

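With 1 library per treatment and fraction, no value has a replicate error, and depth per library is unknown. The count of ZNF genes called higher (116) was 91 to 121 with any single fraction number omitted, 122 with size factors, 108 with a percentage point added to each share, 138 by the point that splits the total at 50%, 120 with the other centre, 150 at a threshold of 0.25 fractions and 27 at a threshold of 1. These are net counts. The added percentage point shrank every relative shift by the same factor, so its count reflects little more than a higher threshold. Of the 116, 102 stayed called higher with size factors and 85 without fraction 5, the fewest for any single fraction. Over all genes 28.7% were called higher with size factors, 21.7% with a percentage point added and 20.6 to 26.3% with a fraction omitted. Called lower were 26.4%, 21.7% and 19.5 to 25.5% in the same settings. For the point at 50% of the total, the other centre and the other thresholds, no share over all genes was counted. The ZNF counts under those alternatives therefore have no background beside them. The count called lower (2) was 2 to 4 when a fraction number was left out (4 without fraction 2, 3 or 7), 4 by the point that splits the total at 50%, 8 at a threshold of 0.25 and 1 at a threshold of 1. The median relative shift (0.56) was 0.46 to 0.65 under every other alternative and 0.87 by the point that splits the total at 50%. The median change in the share in fractions 5 to 8 (−18.7 points) was 12.9 points with size factors, so its sign rests on the scaling. Of the alternative values of single named genes, 481 left the gene's call as it was, 28 gave a call that was not there with the deposited shares, 43 lost a call and 0 reversed one. A call can be lost beyond the threshold, where the direction turned on omission of a fraction, and a value can pass the threshold without a call for the same reason. The median log2 ratios of the ZNF genes moved with the pseudocount: with 0.1 and with 10 percentage points they were 1.14 and 0.40 in fraction 1, 0.91 and 0.51 in fraction 2, −1.45 and −0.59 in fraction 6, −2.13 and −0.61 in fraction 7, and −1.38 and −0.19 in fraction 8, and none of the 8 fractions changed sign. No paired analysis was possible because each treatment and fraction has 1 library and no replicate numbers.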
